A study of Homo sapiens with 6 samples.

Results

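The genes described here are 6 STAT factors, STAT2, STAT3, STAT4, STAT5A, STAT5B and STAT6, and 2 SOCS inhibitors, SOCS1 and SOCS2. They were taken by gene name from a count table of 60461 genes, each name matched 1 row, and all 8 passed the filter on low counts that left 18899 genes for testing. The table holds 3 RNA sequencing libraries of MDA-MB-231 cells given an adenovirus that carries the ADAR1 p110 coding sequence, and 3 of the same cells given an adenovirus for enhanced green fluorescent protein (GFP). MDA-MB-231 is an established triple-negative breast cancer line, so the libraries come from 1 line, and both groups were exposed to adenoviral particles at a multiplicity of infection of 200, with new medium after 16 h and lysis after 48 h. ADAR1 p110 is the shorter, mainly nuclear form of an enzyme that turns adenosine into inosine in double-stranded RNA. The labels call the replicates biological without saying how cultures were kept apart, so p-values speak of the variation among these 6 libraries, which may be technical.

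STAT proteins wait in the cytoplasm until a cytokine binds its receptor. Receptor-bound JAK kinases then phosphorylate them, and they pair, enter the nucleus and bind DNA at palindromic elements known as GAS sites, or, for STAT2 with its partners, at interferon-stimulated response elements. SOCS proteins close the loop: many are transcribed in response to STATs and then block JAKs or receptors or mark them for destruction. In breast tissue STAT5A and STAT5B carry the prolactin signal, and in triple-negative breast cancer cells STAT3 is often kept active by cytokines such as interleukin-6.

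Of the 8 genes, STAT5A fell, to 11.9 ± 0.825 CPM in ADAR1 p110 cells against 23.7 ± 0.844 CPM in GFP cells (SD, n = 3 each), a 1.99-fold lower level. Its close relative STAT5B stood at 39.8 ± 0.929 CPM in ADAR1 p110 cells and 36.8 ± 0.706 CPM in GFP cells and did not pass the test. STAT3 and STAT6 had lower estimates that missed the threshold, and STAT2, STAT4, SOCS1 and SOCS2 had estimates within 0.11 of 0 on the log2 scale. CPM are read counts scaled to library totals corrected by TMM, a scaling that sets most genes level between libraries, and a gene was called when edgeR's quasi-likelihood test gave a Benjamini-Hochberg adjusted p under 0.05 over all tested genes. By that rule 1 of the 8 genes fell and 0 rose, where 2.96% of all tested genes fell, 1.95% rose and 4.91% were called in either direction. At an unadjusted p under 0.05, 3 of the 8 were lower and 0 higher, where 9.43% of all tested genes were lower and 9.21% higher, 18.6% in all. DESeq2 called 2 lower and 0 higher, against 4.67% lower and 3.88% higher of the 15235 genes to which it gave an adjusted p, 8.55% in all. By limma-voom 1 was lower and 0 higher, against 3.1% lower and 1.97% higher of all tested genes, 5.07% in all.

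STAT5A and STAT5B lie beside each other on chromosome 17 and are near-copies in their coding sequence, so the sequences that part them decide how well reads can be assigned. In the reference annotation for hg19 their coding sequences hold 2382 and 2361 bases and were identical at 89% of the 2345 aligned positions. The longest identical run covered 429 bases, and 21.7% of all 50-base windows of the STAT5A coding sequence also occurred in that of STAT5B. For 100-base windows it was 16.3%. The deposited lengths of the genes are 5754 and 6447 bases, and sequence outside the coding part was not compared. The first 90 bases of the longest identical run, at chr17:40451782-40451871 on the plus strand in STAT5A and at chr17:40371758-40371847 on the minus strand in STAT5B, show why a short read there has no single origin.
STAT5A and STAT5B: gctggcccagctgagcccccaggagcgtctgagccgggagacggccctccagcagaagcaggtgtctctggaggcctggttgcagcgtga
The ungapped stretch of 90 bases with the most differences, 27, spans an exon junction at chr17:40441506-40441921 in STAT5A and chr17:40379666-40384069 in STAT5B (GRCh37). It shows the kind of sequence by which the genes can be told apart, with capitals at the bases that differ.
STAT5A: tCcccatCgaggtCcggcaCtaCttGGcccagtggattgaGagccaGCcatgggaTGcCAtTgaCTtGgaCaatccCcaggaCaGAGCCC
STAT5B: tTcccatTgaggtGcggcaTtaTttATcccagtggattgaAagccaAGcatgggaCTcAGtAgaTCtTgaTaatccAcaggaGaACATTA

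Because STAT5A was the called gene, the RefSeq windows around its starts were read for binding motifs (GRCh38.p14, from 250 bases before to 50 bases after each start). Windows were present for 7 of the 8 genes, SOCS2 being the other, with 3 starts for STAT5A and 2 for STAT4. The motifs, searched on both strands with overlaps allowed, were the GAS element TTCNNNGAA, the wider spacing TTCNNNNGAA bound by STAT6, the response element GAAANNGAAA, and the NF-kappaB consensus. They occurred in 7.66%, 6.44%, 3.57% and 5.91% of 35116 windows of the same length. The STAT5A window chr17:42287189-42287488 held 1 match to the wider spacing and chr17:42288248-42288547 held 1 match to the NF-kappaB consensus, both windows being on the plus strand and shown with the matches in capitals.
STAT5A, first start: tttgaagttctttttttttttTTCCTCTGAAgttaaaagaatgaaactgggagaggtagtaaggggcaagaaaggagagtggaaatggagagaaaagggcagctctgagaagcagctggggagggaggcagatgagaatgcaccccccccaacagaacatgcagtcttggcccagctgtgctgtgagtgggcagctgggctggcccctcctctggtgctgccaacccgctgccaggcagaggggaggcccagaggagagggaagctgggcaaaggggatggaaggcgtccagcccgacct
STAT5A, last start: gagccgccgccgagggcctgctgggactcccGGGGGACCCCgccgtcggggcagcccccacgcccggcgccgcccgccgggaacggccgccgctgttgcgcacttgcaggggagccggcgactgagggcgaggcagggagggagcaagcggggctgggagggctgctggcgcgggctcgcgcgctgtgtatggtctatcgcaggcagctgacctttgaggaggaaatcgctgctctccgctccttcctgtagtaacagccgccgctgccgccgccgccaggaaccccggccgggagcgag
The window of the other STAT5A start and those of STAT2, STAT3, STAT4, STAT5B and STAT6 held no match to these 4 motifs, and the SOCS1 window held 1 response element. A match is a string of letters, and these counts do not measure binding.

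Library totals ran from 72741235 to 99589278 counts, and 3 counts, taken as the most that a count of 0 allows, came to 0.0301 to 0.0412 CPM, which covers counting error only. ADAR stood between 991 and 1015 CPM in ADAR1 p110 cells and between 257 and 272 CPM in GFP cells. On the second principal component, with 21.8% of the variance, ADAR1 p110 replicate 1 and GFP replicate 2 lay apart from the other 4 libraries, so results are also given without this pair set apart, a choice made after the data were seen, where they change. The 8 mesenchymal markers taken for this line summed to 6676 to 6932 CPM in ADAR1 p110 cells and 6416 to 6638 CPM in GFP cells, with SPARC under 2 CPM in every library and CAV1 called higher (log2 fold change 0.20). The 8 luminal breast markers summed to 1744 to 1876 CPM in ADAR1 p110 cells and 1500.1 to 1701 CPM in GFP cells, with 0 called. ESR1, PGR and FOXA1 were under 1 CPM in every library, while the keratin KRT8 averaged 932 CPM in ADAR1 p110 cells and 851 CPM in GFP cells, KRT18 795 and 675 CPM, and ERBB2 90.1 and 85.8 CPM in those groups. Summed leukocyte markers ran from 10.3 to 11.1 CPM in ADAR1 p110 cells and from 11.6 to 14.04 CPM in GFP cells, with 4 of 7 under 1 CPM in every library and CD3E at 0. Fibroblast markers summed to 46.1 to 52.4 CPM in ADAR1 p110 cells against 51.1 to 55.4 CPM in GFP cells, and endothelial markers to 50.7 to 53.7 CPM against 57.2 to 61.4 CPM in GFP cells, with 4 and 5 of 7 genes under 1 CPM in every library and the endothelial KDR called lower (log2 fold change -0.45). PDGFRB gave most of the fibroblast sum, averaging 34.2 CPM in ADAR1 p110 cells and 35.5 CPM in GFP cells. ESAM gave most of the endothelial sum, averaging 44.7 and 48.4 CPM in those groups. The part of these markers in the results below was not tested. In bulk RNA, fewer cells that express a gene and less RNA per cell cannot be told apart.

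STAT5A (ENSG00000126561.16_2, hg19 chromosome 17, 40439565 to 40463961, plus strand) encodes a factor that transmits prolactin, growth hormone and interleukin-2 family signals. It had 10.97, 12.5 and 12.3 CPM in ADAR1 p110 replicates 1, 2 and 3, from 833, 1229 and 951 counts. In GFP replicates 1, 2 and 3 it had 24.7, 23.2 and 23.3 CPM, from 2144, 1684 and 2290 counts. Every ADAR1 p110 library lay below every GFP library, with a gap wider than the range within either group. The log2 fold change was -0.99 (SE 0.071, 95% interval -1.15 to -0.84, edgeR adjusted p = 1.2e-05), which placed STAT5A at rank 50 of 18899 genes by p and at rank 196 from the steepest fall. The call held in all 13 alternative fits, with log2 fold changes between -1.02 and -0.94 and adjusted p up to 0.000371.

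STAT5B (ENSG00000173757.9_3, hg19 chromosome 17, 40351186 to 40428725, minus strand), which shares most signals of STAT5A and is the main growth hormone mediator in liver, had 40.6, 38.7 and 39.9 CPM in the ADAR1 p110 libraries. It had 37.6, 36.2 and 36.6 CPM in the GFP libraries. The ADAR1 p110 libraries lay just above the GFP libraries, but the log2 fold change of 0.11 (95% interval -0.0047 to 0.23) did not pass the test (edgeR adjusted p = 0.289). Its estimate was positive and uncalled in the 13 alternatives.

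**Figure D1:**
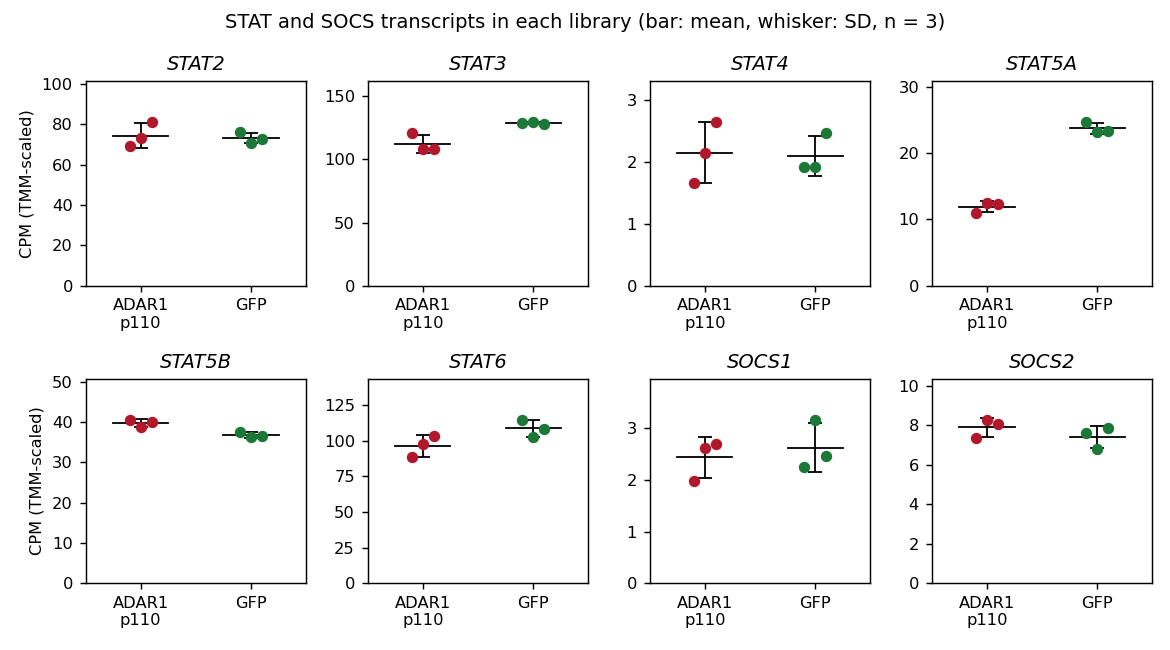
CPM of the 8 genes in each library, with ADAR1 p110 in red on the left and GFP in green on the right of each panel, the group mean as a bar and the SD as a whisker (n = 3 per group, axes from 0). STAT5A shows the widest separation, 10.97 to 12.5 CPM in ADAR1 p110 cells against 23.2 to 24.7 CPM in GFP cells, while STAT2, STAT4, STAT6, SOCS1 and SOCS2 overlap between groups.

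The balance of the pair was compared within libraries, where scaling cancels. The ratio of STAT5A to STAT5B counts was 0.270, 0.322 and 0.308 in the ADAR1 p110 libraries, against 0.658, 0.642 and 0.636 in those of GFP cells. The log2 ratio was lower by a mean of 1.11 in ADAR1 p110 cells, and the exact two-sided permutation p was 0.1, the smallest that 3 against 3 libraries can give. STAT5A thus made up 23.1% ± 1.60 of the summed STAT5 counts in ADAR1 p110 cells and 39.2% ± 0.421 in GFP cells (SD, n = 3 each). The sum of both genes was 51.7 ± 0.511 CPM in ADAR1 p110 cells and 60.5 ± 1.54 CPM in GFP cells, 0.854 of the GFP level. How reads that fit both genes were assigned is not given in the sources used here, so the absolute split is uncertain.

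STAT3 (ENSG00000168610.14_3, hg19 chromosome 17, 40465342 to 40540586, minus strand), the factor downstream of the interleukin-6 family, has its 3′ end 1380 bases beyond that of STAT5A, on the opposite strand. It had 121, 108 and 108 CPM in the ADAR1 p110 libraries, against 129, 130 and 128 CPM in those of GFP cells. The groups did not overlap, as for STAT5A and STAT5B (3 of the 8 genes, against 24% of all tested genes), and the highest ADAR1 p110 value came from replicate 1, a library set apart on the second component. The log2 fold change was -0.20 (SE 0.056, 95% interval -0.32 to -0.07) and missed the threshold (edgeR adjusted p = 0.0741). Without ADAR1 p110 replicate 1 it was -0.25 and passed (adjusted p = 0.00469), as it did without the pair set apart (adjusted p = 0.000599), with the DESeq2 Wald test (0.0443) and with no filter on low counts (0.0412). The 9 other alternatives left it uncalled, with adjusted p over the 13 between 0.000599 and 0.274.

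STAT6 (ENSG00000166888.11_3, hg19 chromosome 12, 57489191 to 57525922, minus strand) answers interleukin-4 and interleukin-13. It had 88.5, 97.5 and 103 CPM in the ADAR1 p110 libraries, against 115, 103 and 108 CPM in those of GFP cells. The highest ADAR1 p110 library lay just above the lowest GFP library, GFP replicate 2. Its log2 fold change of -0.17 (95% interval -0.32 to -0.02) did not pass (edgeR adjusted p = 0.192). Without the pair set apart it was -0.15 and passed (adjusted p = 0.0364), with adjusted p up to 0.487 over the 13 alternatives. LRP1 and NAB2 overlap STAT6 on the opposite strand, at 48.9% and 15.8% of its counts, and neither was called, at log2 fold changes of -0.13 and -0.04.

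STAT2 (ENSG00000170581.13_3, hg19 chromosome 12, 56735381 to 56753939, minus strand), the partner through which type I and type III interferons act, had 69.0, 73.1 and 81.2 CPM in the ADAR1 p110 libraries. It had 76.1, 70.8 and 72.7 CPM in the GFP libraries. The GFP values fell inside the range of the ADAR1 p110 values, and the log2 fold change was 0.02 (95% interval -0.12 to 0.17, edgeR adjusted p = 0.900).

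STAT4 (ENSG00000138378.17_2, hg19 chromosome 2, 191894302 to 192016322, minus strand), best known from T cells and natural killer cells where it carries interleukin-12 signals, was scarce in this line. It had 1.66, 2.15 and 2.65 CPM in the ADAR1 p110 libraries, against 1.92, 1.92 and 2.48 CPM in those of GFP cells, from 126 to 212 and 139 to 244 counts. The groups overlapped, and the log2 fold change of 0.03 had a wide 95% interval, -0.38 to 0.43 (edgeR adjusted p = 0.963).

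**Figure D2:**
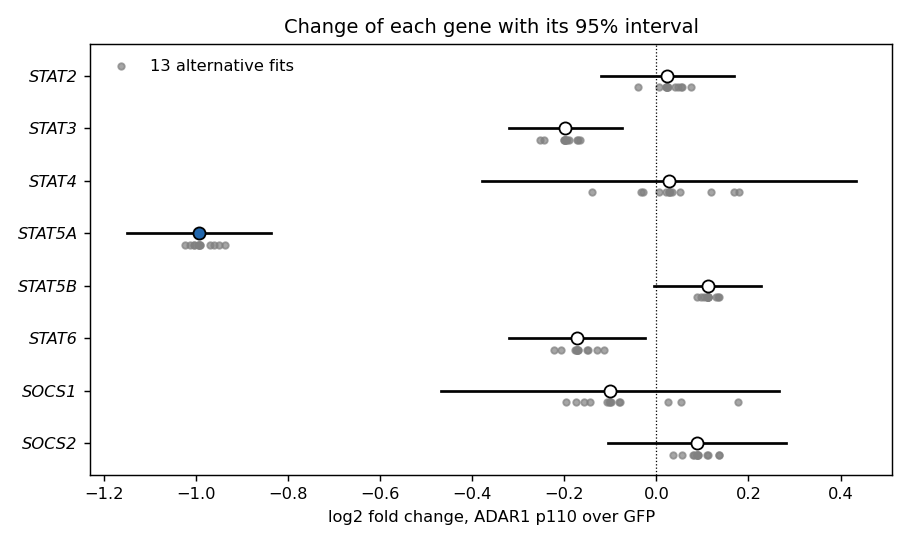
Change of each of the 8 genes in ADAR1 p110 relative to GFP cells (horizontal axis, log2), with the 95% interval as a line, the called gene in blue, uncalled genes in white and the 13 alternative fits as grey points below each line. STAT5A lies at -0.99 with an interval that reaches no further than -0.84, whereas the other 7 estimates lie between -0.20 and 0.11.

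The 2 inhibitors were not called by edgeR, DESeq2 or limma-voom, and 0 of 2 had an unadjusted p under 0.05. SOCS1 (ENSG00000185338.4_2, hg19 chromosome 16, 11348262 to 11350036, minus strand), which binds and blocks JAK kinases directly, had 1.97, 2.62 and 2.69 CPM in the ADAR1 p110 libraries, against 2.25, 3.16 and 2.45 CPM in those of GFP cells. The lowest value was in ADAR1 p110 replicate 1 and the highest in GFP replicate 2, and the log2 fold change was -0.10 (95% interval -0.47 to 0.27, edgeR adjusted p = 0.818). It was 0.18 without those libraries together, 0.03 without ADAR1 p110 replicate 1 alone and 0.05 without GFP replicate 2 alone, uncalled in each. RMI2 overlaps SOCS1 on the opposite strand, at 318% of its counts, and whether counting used the strand is not given in the sources used here.

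SOCS2 (ENSG00000120833.13_4, hg19 chromosome 12, 93963590 to 93977263, plus strand), a STAT5-induced brake on growth hormone and prolactin receptors, had 7.36, 8.28 and 8.04 CPM in the ADAR1 p110 libraries. It had 7.61, 6.80 and 7.86 CPM in the GFP libraries, and the groups overlapped. The log2 fold change was 0.09 (95% interval -0.11 to 0.28, edgeR adjusted p = 0.658), so a change of SOCS2 as large as that of STAT5A lay outside its interval. The antisense gene SOCS2-AS1 held 6.81% as many counts and had a log2 fold change of 0.20 (adjusted p = 0.762). The ratio of SOCS1 to SOCS2 counts averaged 0.306 ± 0.0341 in ADAR1 p110 cells and 0.357 ± 0.0932 in GFP cells (SD, n = 3 each), with an exact two-sided permutation p of 0.6.

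Levels were compared between genes as CPM per kb of deposited gene length. In ADAR1 p110 cells STAT6 averaged 13.2, STAT3 12.8 and STAT2 12.2 CPM per kb, with ranges that overlapped, so their order is not resolved. In GFP cells the same genes averaged 14.9, 14.6 and 11.98 CPM per kb, the first pair overlapping and STAT2 below both. STAT5B followed at 6.17 CPM per kb in ADAR1 p110 cells and 5.71 CPM per kb in GFP cells, apart from its neighbours in the order in both groups. STAT5A averaged 2.07 CPM per kb in ADAR1 p110 cells, inside the SOCS1 range of 1.61 to 2.20 CPM per kb there. In GFP cells STAT5A averaged 4.12 CPM per kb, above the SOCS1 range of 1.83 to 2.58 CPM per kb. SOCS2, at 1.17 CPM per kb in ADAR1 p110 cells and 1.09 CPM per kb in GFP cells, and STAT4, at 0.507 and 0.496 CPM per kb in those groups, were the lowest in both.

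**Figure D3:**
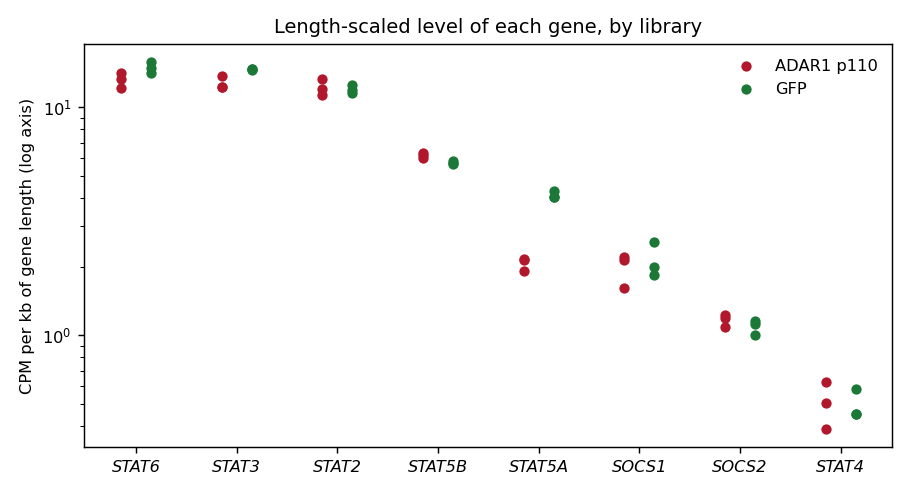
CPM per kb of gene length in each library (log axis) for the 8 genes, ordered by the GFP mean, with ADAR1 p110 in red on the left and GFP in green on the right of each gene. STAT5A points of the ADAR1 p110 libraries sit at the height of SOCS1, while its GFP points sit between STAT5B and SOCS1.

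The genes most like STAT5A across the 6 libraries were SDC4, a cell surface proteoglycan, and CDKN1A, the cell cycle inhibitor p21. Likeness was the mean absolute difference of centred log2 CPM over the 6 libraries among 10349 protein-coding genes with at least 5 CPM, and it was 0.0254 and 0.0305. SDC4 averaged 195 CPM in ADAR1 p110 cells and 380 CPM in GFP cells, and CDKN1A 82.3 CPM in ADAR1 p110 cells and 159 CPM in GFP cells.

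Genes that act before and after STATs were then counted in lists, 138 tested genes without the 8 and without repeats. Of these 18 fell and 4 rose, 15.9% in all against 4.91% of all tested genes, with a median log2 fold change of -0.06 against 0.00 over all genes. The lists were chosen with earlier results of these data known, so the higher share cannot be read as a result about the pathway. Without ADAR1 p110 replicate 1 the count was 35, 25 lower and 10 higher, where 5.16% of all genes were lower and 4.03% higher, 9.19% in all. Without the pair set apart it was 46, 32 lower and 14 higher, where 7.32% of all genes were lower and 6.07% higher, 13.4% in all.

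Among ligands, 5 of 14 tested fell and 0 rose, where edgeR called 4.91% of all tested genes. Their median log2 fold change was -0.14. At an unadjusted p under 0.05, 6 were lower and 1 higher, against 18.6% of all tested genes. DESeq2 gave 5 lower and 0 higher, against 8.55%, and limma-voom 5 lower and 0 higher, against 5.07%. The colony-stimulating factor CSF2, which signals through STAT5, had 10.1 ± 1.21 CPM in ADAR1 p110 cells and 75.5 ± 4.84 CPM in GFP cells (SD, n = 3 each), a log2 fold change of -2.90 (edgeR adjusted p = 1.19e-08). CSF3, which signals through STAT3, had 0.545 ± 0.0886 CPM against 6.72 ± 0.536 CPM in GFP cells. Of the CSF2 receptor chains, CSF2RA averaged 53.1 CPM in ADAR1 p110 cells and 58.8 CPM in GFP cells. It was not called (edgeR adjusted p = 0.261). CSF2RB averaged 0.0705 CPM in ADAR1 p110 cells and 0.0420 CPM in GFP cells, and the receptor CSF3R was at 0 in both groups. These chains were picked after their values were seen, and CSF2RB and CSF3R were too low to test. Whether these cells answer CSF2 or CSF3 was not tested. IL6 fell by 1.58 on the log2 scale, LIF, another cytokine of the interleukin-6 family, fell by 0.41, and IL23A, a subunit of interleukin-23 named after its values were seen, fell by 1.30, its call being lost without GFP replicate 1 (log2 fold change -1.12, adjusted p = 0.0542). IL11, also of the interleukin-6 family and picked after its values were seen, had a log2 fold change of 0.01 and was not called.

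Among receptor chains, 6 of 26 tested fell and 0 rose, where edgeR called 4.91% of all tested genes. Their median log2 fold change was -0.20. At an unadjusted p under 0.05, 14 were lower and 1 higher, against 18.6% of all tested genes. DESeq2 gave 6 lower and 0 higher, against 8.55%, and limma-voom 6 lower and 0 higher, against 5.07%. The called chains were IL7R (-0.55), IL27RA (-0.61), IL4R (-0.28), both chains of the interferon-gamma receptor, IFNGR1 (-0.42) and IFNGR2 (-0.42), and IFNAR1 (-0.35), a chain of the type I interferon receptor that was picked after its values were seen. IL7R, whose ligand acts through STAT5, had 40.9 ± 0.896 CPM in ADAR1 p110 cells and 60.0 ± 1.70 CPM in GFP cells (SD, n = 3 each, edgeR adjusted p = 0.000136). Its partner chain IL2RG averaged 0.0440 CPM in ADAR1 p110 cells and 0.0769 CPM in GFP cells, too low to test. Another partner chain, CRLF2, averaged 1.76 CPM in ADAR1 p110 cells and 1.67 CPM in GFP cells and was not called. Both partners were picked after their values were seen. IFNAR1 lost its call when 1 library was left out, be it ADAR1 p110 replicate 2 or 3 or GFP replicate 1, 2 or 3 (adjusted p between 0.0656 and 0.097), and with the replicate number as a block. The count was 10 without ADAR1 p110 replicate 1, where 9.19% of all genes were called, and 14 without the pair set apart, where 13.4% were. IFNGR2 overlaps TMEM50B on the opposite strand, whose own counts came to 32.9% of those of IFNGR2. Of the JAK kinases, JAK1 fell to 134 ± 0.608 CPM in ADAR1 p110 cells, against 165 ± 5.74 CPM in GFP cells (log2 fold change -0.30, edgeR adjusted p = 0.00473), and JAK2, JAK3 and TYK2 did not pass, at log2 fold changes of 0.05, -0.62 and -0.13.

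**Figure D4:**
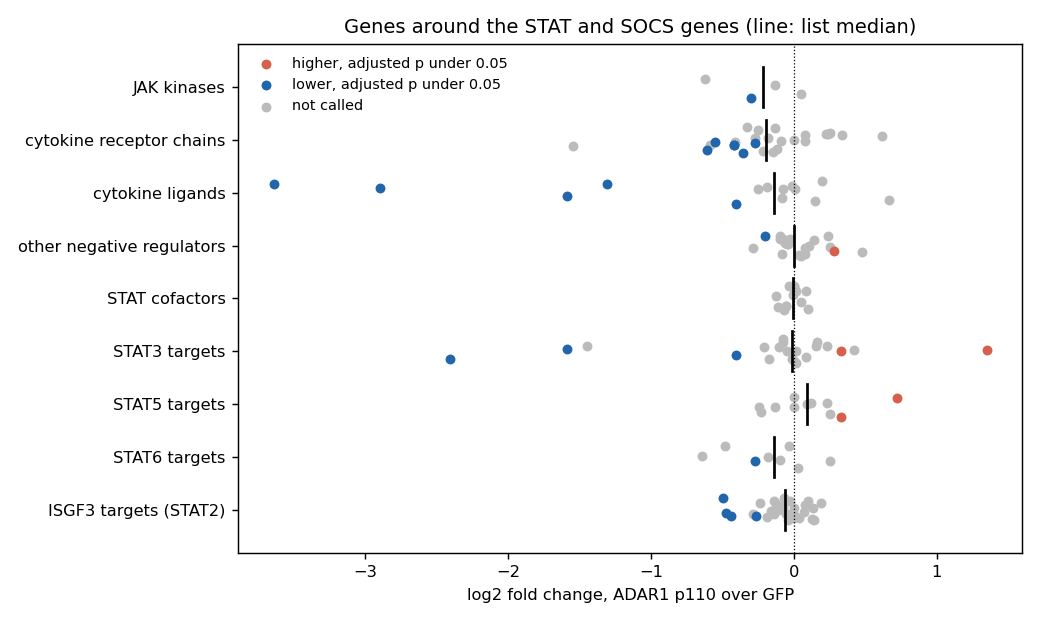
Change in ADAR1 p110 relative to GFP cells (horizontal axis, log2) of the tested genes of 9 lists, with called rises in red, called falls in blue, uncalled genes in grey and the list median as a line. Ligands reach from -3.64 for CSF3 to 0.67, while the STAT cofactors lie close to 0 with 0 of 14 called.

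Other negative regulators gave 1 higher and 1 lower gene of 20, where 4.91% of all tested genes were called. At an unadjusted p under 0.05, 3 were higher and 2 lower, against 18.6% of all tested genes. DESeq2 gave 2 higher and 1 lower, against 8.55%, and limma-voom 1 higher and 1 lower, against 5.07%. The phosphatase PTPN1, which acts on JAK2 and TYK2, had a log2 fold change of 0.28 (edgeR adjusted p = 0.0298), and PTPN2, which acts on JAK1 and JAK3, one of -0.20 (adjusted p = 0.0478). These calls were fragile: PTPN2 was called in 5 of the 13 alternatives and PTPN1 in 8. The list count was 0 without ADAR1 p110 replicate 2, ADAR1 p110 replicate 3, GFP replicate 1 or GFP replicate 2, 1 without GFP replicate 3, 4 without ADAR1 p110 replicate 1, and 0 with the replicate number as a block, while 2.06% to 3.41%, 9.19% and 2.69% of all genes were called without one of those 5 libraries, without ADAR1 p110 replicate 1 and with the block. The other family members CISH, SOCS4, SOCS5, SOCS6 and SOCS7, named after their values were seen, were not called, at log2 fold changes of 0.25, -0.03, -0.10, 0.05 and 0.24. STAT cofactors gave 0 of 14 by edgeR, DESeq2 and limma-voom (1 lower and 0 higher at an unadjusted p under 0.05, against 18.6% of all tested genes), and the most abundant, TRIM28, had a log2 fold change of 0.05.

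Genes known as STAT targets moved in both directions, and edgeR called 4.91% of all tested genes. Of 11 tested STAT5 targets 2 rose and 0 fell (3 higher and 1 lower at an unadjusted p under 0.05, against 18.6% of all tested genes; 3 and 0 by DESeq2, against 8.55%; 2 and 0 by limma-voom, against 5.07%), with a median log2 fold change of 0.09. ID1, an inhibitor of basic helix-loop-helix factors, had 138 ± 14.6 CPM in ADAR1 p110 cells and 83.9 ± 5.50 CPM in GFP cells, and CCND1, encoding cyclin D1, 296 ± 4.06 CPM and 236 ± 5.41 CPM in those groups (SD, n = 3 each). SOCS2 is itself in this list and SOCS1 in that of STAT6. The count for STAT5 targets was 4 without ADAR1 p110 replicate 1, and also 4 without the pair set apart, fits in which 9.19% and 13.4% of all genes were called.

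Of 21 tested STAT3 targets 3 fell and 2 rose, where edgeR called 4.91% of all tested genes. Without the pair set apart 4 fell and 7 rose, where 13.4% of all genes were called. At an unadjusted p under 0.05, 6 were lower and 4 higher, against 18.6% of all tested genes. DESeq2 gave 4 lower and 3 higher, against 8.55%, and limma-voom 3 lower and 2 higher, against 5.07%. On the log2 scale ICAM1, an adhesion molecule, fell by 2.40, IL6 by 1.58 and LIF by 0.41, while FOS rose by 1.35 and CCND1 by 0.33. ICAM1, IL6 and LIF also answer NF-kappaB, and IL6 and LIF are counted among the ligands too. Of 8 tested STAT6 targets the receptor chain IL4R fell and 0 rose (2 lower and 0 higher at an unadjusted p under 0.05, against 18.6% of all tested genes, and 1 and 0 by DESeq2 and by limma-voom), and IL4R lost its call without ADAR1 p110 replicate 2 or 3 or GFP replicate 1 and with the replicate number as a block. Of 32 targets of the complex that STAT2 forms with interferon partners, 4 fell and 0 rose (4 and 0 also by DESeq2 and by limma-voom). At an unadjusted p under 0.05, 7 were lower and 2 higher, 28.1% of the 32 against 18.6% of all tested genes. The 4 called by edgeR were MX1 (-0.49) and OAS3 (-0.44), both antiviral, XAF1 (-0.48), and UBE2L6 (-0.27), an enzyme that attaches ISG15 to proteins. UBE2L6 was called in 8 of the 13 alternatives. Its call was lost without ADAR1 p110 replicate 2 or 3 or GFP replicate 1 or 3 and with the replicate block. The median of the 32 was -0.06, and 7 were called without the pair set apart, against 13.4% of all genes.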

How the data were processed

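Total RNA from 6 libraries of MDA-MB-231 cells was sequenced after preparation with a stranded kit, per the labels' protocols. The deposited values are raw read counts per gene, made by the authors with STAR 2.5.2a on hg19 and featureCounts 1.5.1, per the submitters' processing notes. The deposited table also gives gene length in bases. The sources used here do not give the strand setting or the handling of reads with several alignments, which limits values of overlapping genes and near-copies.

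Groups came from sample titles. Genes were filtered with filterByExpr (minimum count 10), normalised by TMM and fitted by group alone in edgeR 4.0.16 (R 4.3.3), then called by its quasi-likelihood test at a Benjamini-Hochberg adjusted p under 0.05 over 18899 genes. The SE is the log2 fold change divided by the root of F. Alternatives were DESeq2 size factors, library size alone, no filter, DESeq2 1.42.0, limma-voom (limma 3.58.1), a replicate block and leaving out each library. Leaving out 2 libraries together was added after the data were seen. On counts simulated in 20 draws with known changes, the share of false calls averaged under the 0.05 level for edgeR and limma-voom and over it for DESeq2, and was over it for edgeR too in some draws. Replicates differed by more than sampling noise (chi-square per degree of freedom 7.94 to 35.4).

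The members and lists were chosen with earlier results of these data known. Named genes were the 8 members, up to 4 called genes per list by smallest p or else its most abundant gene, the 2 genes most like a called member, and overlapping genes. Motifs and coding sequences were read from RefSeq windows (GRCh38.p14) and the GRCh37 reference. 1 of 185 list names, RBX2, matched no row, and its gene is listed as RNF7.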

Additional observations from a re-analysis of the deposited data

How the results depend on the processing

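STAT5A kept its direction and call in all 13 alternatives. The number of the 8 genes called was 2 with no filter on low counts and 2 with DESeq2, where 4.57% and 8.55% of all genes were called. It was 1 to 2 when leaving out each library, where 2.06% to 9.19% were called. Without the pair that stood apart, ADAR1 p110 replicate 1 with GFP replicate 2, it was 3, where 13.4% were called. Over all genes the 927 calls became 1553 with no filter, 508 with the replicate block, 396 to 1812 when leaving out each library, and 2605 without that pair. With library size alone 510 genes rose and 479 fell, against 368 and 559 with TMM.

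Deviations of same-numbered libraries correlated weakly (-0.11, -0.03 and 0.04 for numbers 1, 2 and 3). No ADAR1 p110 library correlated best with the GFP library of its own number, and of the GFP libraries replicate 3 alone did. The labels do not say whether the numbers pair the samples, and correlations over so few libraries cannot decide it. With the replicate block, other negative regulators gave 0 calls and STAT6 targets 0, where 2.69% of all genes were called.

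Leaving out each library gave 16 to 35 calls over all pathway lists, where 2.06% to 9.19% of all genes were called. It gave 4 to 10 for receptor chains, 0 to 4 for other negative regulators and 0 to 1 for cofactors. For STAT5 targets it gave 2 to 4, and for STAT6 targets 0 to 2. Without the pair set apart these were 46, 14, 4, 1, 4 and 3, where 13.4% of all genes were called. STAT3 targets then gave 11 and targets of STAT2 gave 7.

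Signs turned for uncalled genes. STAT2 had log2 fold changes from -0.040 (without ADAR1 p110 replicate 3) to 0.075 when leaving out each library. STAT4 had -0.14 without that library, and -0.03 without GFP replicate 1 or GFP replicate 2. SOCS1 ran from -0.196 to 0.0546, with 0.03 without ADAR1 p110 replicate 1, 0.0546 without GFP replicate 2 and 0.18 without both. The log2 change of the SOCS1 to SOCS2 ratio ran from -0.32 to 0.01 (0.0071 without GFP replicate 2), and that of STAT5A to STAT5B from -1.16 to -1.03. Of 16 ranks per kb, 12 to 16 were unchanged when leaving out each library. The causes were not tested. At 126 to 258 counts per library, STAT4 and SOCS1 had the widest intervals.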
